A study of Mus musculus with 4 samples.

Results

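Caspases, the apoptosome, the apoptotic nucleases, the caspase inhibitors and the death adaptors make up the machinery that takes a dying cell apart. A list of 33 such genes was followed in immature T cells of the mouse thymus exposed to dexamethasone, a synthetic glucocorticoid. Members were the genes of that list with a probe set that names 1 gene in the platform annotation. Of the 33, 31 had one, on 44 probe sets among the 12488 of the array, and Ripk1 and Dnase2a had none. They are 31 of the 8251 genes that the array names singly. RNA came from double-positive thymocytes, which carry both CD4 and CD8, sorted with microbeads from female C3H/HeN mice aged 4 weeks. Both groups spent 3 h in culture, in wells of 3 ml holding 5.0E+06 cells per ml. Dexamethasone, carried in PBS, was used at 1e-07 M, and the medium group received 0.1% PBS. Each group had 2 Affymetrix arrays, described as technical replicate extracts, so the p-values measure the spread between extracts only. In such bulk RNA, fewer cells of a type and less RNA per cell cannot be told apart.

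In the mitochondrial route to apoptosis, cytochrome c leaves the mitochondria and binds Apaf1, and this assembly, the apoptosome, activates caspase-9, which cleaves the executioner caspases. Death receptors instead recruit the adaptor Fadd and activate caspase-8, a step held back by Cflar. Executioner caspases cleave Dffa and so free the nuclease Dffb, which cuts chromatin between nucleosomes, while Xiap binds and blocks caspases until Diablo or Htra2 displaces it. Glucocorticoids kill double-positive thymocytes by apoptosis, and these enzymes are made as inactive precursors, so their activation need not involve their mRNA.

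With dexamethasone, 0 of the 22 members that could be tested rose and 0 fell (limma, adjusted p from 0.145 to 0.987). Across all 5582 genes tested, 3.91% passed the adjusted p threshold of 0.05, 1.88% higher and 2.02% lower, so a count of 0 among 22 lies near that background. Unadjusted, 2 members, Api5 and Birc2, had p under 0.05, a share to be read against 19.9% of all genes. The members' log2 differences lay between -0.24 for Birc3 and 0.33 for Endog, with a median of 0.02 against 0.00 for all genes tested. Their median absolute log2 difference was 0.09, against 0.16 for all genes tested. A difference of 2-fold or more was found for 0 members and for 82 of the 5582 genes. The smallest absolute log2 difference of a gene that passed was 0.331, just above the 0.325 of Endog. Small differences seldom pass such a test, so nothing about the members is concluded from this. Differences are on log2(signal + 1), which understates the change of dim genes, and are relative to the deposited scaling of the arrays.

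The members divided into 2 sets by level. A signal of 14, the highest value of 19 probe sets for bacterial and yeast transcripts, served as background. Of the 31 members, 22 lay above it on all 4 arrays and 9 lay at or under it on all 4, with none in between. The 22 above background were also the 22 that passed the filter on dim genes and were tested.

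**Figure D1:**
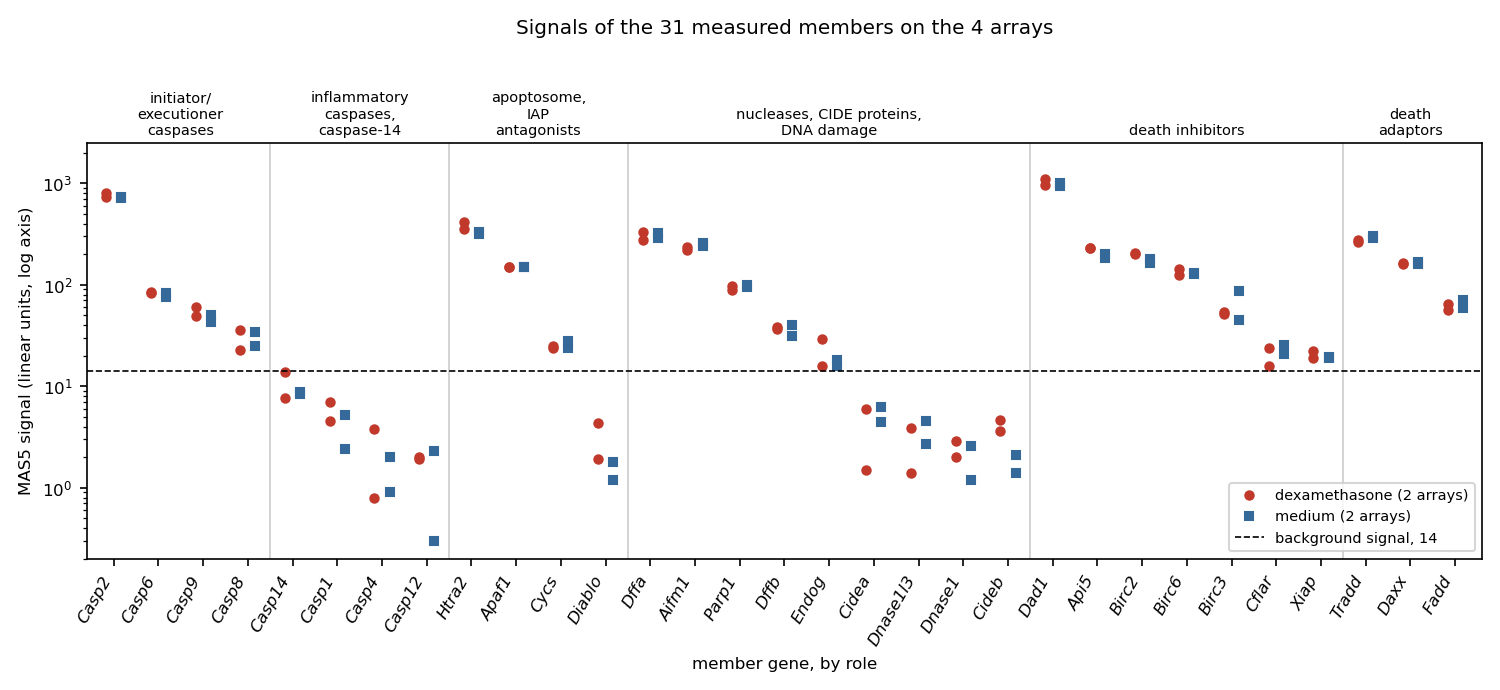
MAS5 signal (linear units on a log axis) of each of the 31 measured members, by role, with a point for each dexamethasone array (red) and each medium array (blue) and a dashed line at the background of 14. Casp1, Casp4, Casp12, Casp14, Diablo, Cidea, Cideb, Dnase1 and Dnase1l3 lie at or under the line, and the other 22 genes lie above it with the groups close together.

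What the dim and the bright members share beyond their signal was looked for in the bases before their annotated starts, since promoters rich in CG dinucleotides are typical of broadly expressed genes and promoters poor in them of tissue-restricted ones. RefSeq (GRCm38.p6) held starts for 27 of the 31. The 250 bases before the start are shown for Casp9 and Cycs, above background and rich in CG, for the neighbours Casp1 and Casp4, at background and poor in CG, and for Diablo, at background yet rich in CG. They are given 5′ to 3′ in the direction of the gene, with each CG in capitals.

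Casp9 (chr4:141793362-141793611, plus strand): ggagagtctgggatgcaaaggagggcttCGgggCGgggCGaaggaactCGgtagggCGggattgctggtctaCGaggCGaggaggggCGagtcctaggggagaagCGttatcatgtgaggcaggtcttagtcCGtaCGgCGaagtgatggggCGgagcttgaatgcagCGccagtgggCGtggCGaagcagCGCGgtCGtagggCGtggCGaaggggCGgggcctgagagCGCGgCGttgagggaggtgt

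Cycs (chr6:50566570-50566819, minus strand): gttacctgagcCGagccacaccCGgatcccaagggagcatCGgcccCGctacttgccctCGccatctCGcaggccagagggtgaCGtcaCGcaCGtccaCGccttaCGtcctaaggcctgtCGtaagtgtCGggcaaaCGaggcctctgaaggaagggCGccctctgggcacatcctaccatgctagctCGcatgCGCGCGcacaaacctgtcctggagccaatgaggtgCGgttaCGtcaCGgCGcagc

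Diablo (chr5:123524165-123524414, minus strand): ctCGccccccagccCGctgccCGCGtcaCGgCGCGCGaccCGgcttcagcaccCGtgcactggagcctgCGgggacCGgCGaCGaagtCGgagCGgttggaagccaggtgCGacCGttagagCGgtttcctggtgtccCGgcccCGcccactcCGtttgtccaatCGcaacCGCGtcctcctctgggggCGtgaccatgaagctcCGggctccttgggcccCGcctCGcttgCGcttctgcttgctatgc

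Casp1 (chr9:5298267-5298516, plus strand): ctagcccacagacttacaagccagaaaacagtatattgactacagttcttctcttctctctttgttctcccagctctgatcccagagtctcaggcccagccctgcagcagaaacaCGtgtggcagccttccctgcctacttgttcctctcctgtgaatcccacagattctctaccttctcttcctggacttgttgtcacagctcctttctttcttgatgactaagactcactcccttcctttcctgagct

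Casp4 (chr9:5308599-5308848, plus strand): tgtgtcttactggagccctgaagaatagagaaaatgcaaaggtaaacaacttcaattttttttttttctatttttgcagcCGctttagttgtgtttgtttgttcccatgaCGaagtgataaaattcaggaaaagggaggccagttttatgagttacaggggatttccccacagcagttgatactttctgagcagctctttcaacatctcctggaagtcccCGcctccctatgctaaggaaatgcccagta

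These windows held 25 CG in Casp9 and 23 in Cycs, against 1 in Casp1 and 3 in Casp4. Over the 20 members above background with a start, the median was 16.5 CG, taking for each gene the start with most. The range ran from 5 in Casp8, 6 in Birc3 and 7 in Cflar to 42 in Apaf1. Over the 7 at or under background the median was 3, and all but Diablo, with 30, had 8 or fewer. The other array genes showed a difference in the same direction, with a median of 18 for 4058 genes above background and of 8 for 1997 genes at or under it, so the pattern is not particular to these genes. It is a description without a test. The windows were also searched on both strands for the palindromic glucocorticoid response element, as GNACA and TGTNC with 3 free bases between them, and for AGAACA alone, which 1 side of that palindrome can hold. The palindrome was found before 0 of the 27 members and before 0.440% of the 27025 genes in the table. AGAACA was found before 5 of the 27 members (18.5%: Fadd, Xiap, Casp1, Cideb and Dnase1) and before 18.2% of all genes.

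**Figure D2:**
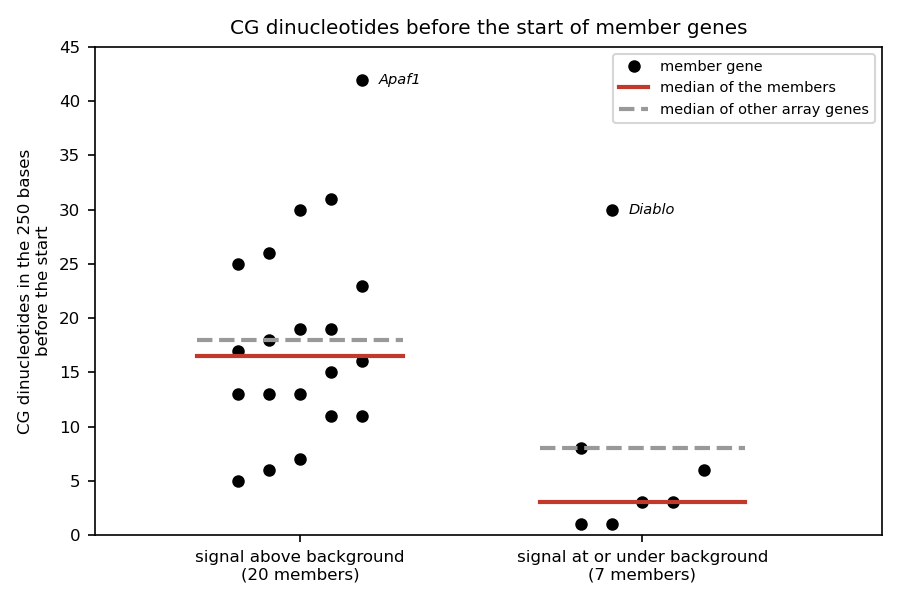
Number of CG dinucleotides in the 250 bases before the start (vertical axis) for 20 members with signal above background and 7 at or under it, each point being a gene at its start with most CG. The red lines mark the members' medians of 16.5 and 3, and the dashed grey lines those of the other array genes, 18 and 8, with Diablo at 30 standing apart from the other dim members.

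The initiator and executioner caspases were present in both groups, and 0 of the 4 tested passed. Casp2, which encodes an initiator caspase linked to genotoxic stress, gave signals of 727 and 808 with dexamethasone, against 728 and 722 in medium. Only 1 dexamethasone array was above the medium values, and the groups overlapped (log2 difference 0.08 ± 0.07, SE). A dimmer Casp2 probe set gave 83.1 and 81.5 with dexamethasone, against 86.8 and 89.4 in medium. Its groups did not overlap, in the lower direction, with a difference of -0.10. Casp6, an executioner caspase known for cleaving lamin A, had 82.0 and 84.3 with dexamethasone, against 75.8 and 83.3 in medium. Its log2 difference was 0.06 ± 0.11. Casp8, the initiator of the death receptor route, was at 22.8 and 35.6 with dexamethasone, against 24.8 and 34.5 in medium. Each group of Casp8 spanned nearly the same range, so its difference of -0.04 ± 0.28 is imprecise, with a 95% interval from -0.71 to 0.63.

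Casp9, the caspase of the apoptosome, had 4 probe sets, all above background, and they did not point one way. The brightest gave 60 and 49.3 with dexamethasone, against 50 and 43.2 in medium, a log2 difference of 0.22 ± 0.16 with overlapping groups. A further probe set gave 38.1 and 43.1 with dexamethasone, against 58.9 and 50 in medium, groups that did not overlap in the opposite direction (-0.41). The remaining probe sets differed by 0.04, with overlapping groups, and by -0.22, without overlap. Of all genes tested, 25.7% did not overlap in the lower direction. In the test over 6701 probe sets in place of genes, 0 of the 30 probe sets of members passed (smallest limma adjusted p = 0.159). Thus no direction can be given for Casp9.

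The apoptosome genes did not pass either. Apaf1, the scaffold that binds cytochrome c, was the most even member: 151 and 149 with dexamethasone, against 149 and 151 in medium. Its log2 difference was -0.00 ± 0.08, and the 95% interval ran from -0.20 to 0.20, its upper end being 1.15-fold. Cycs, which encodes cytochrome c itself, had 24.7 and 23.6 with dexamethasone, against 28.1 and 23.9 in medium (-0.10 ± 0.20). Cytochrome c has many near-identical processed pseudogenes, so that signal is uncertain.

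Of the mitochondrial proteins that displace the caspase inhibitors, Htra2, a serine protease, was measured above background by both of its probe sets. The brighter gave 418 and 351 with dexamethasone, against 318 and 334 in medium. Both dexamethasone arrays were above both medium arrays, as was so for 24.7% of all genes tested, and the log2 difference of 0.23 ± 0.10 did not pass (limma adjusted p = 0.259). The dimmer gave 107 and 139 with dexamethasone, against 137 and 122 in medium, with overlapping groups and a difference of -0.09. Diablo, also known as Smac, lay at background, at 1.9 and 4.3 with dexamethasone, against 1.8 and 1.2 in medium, and was not tested.

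**Figure D3:**
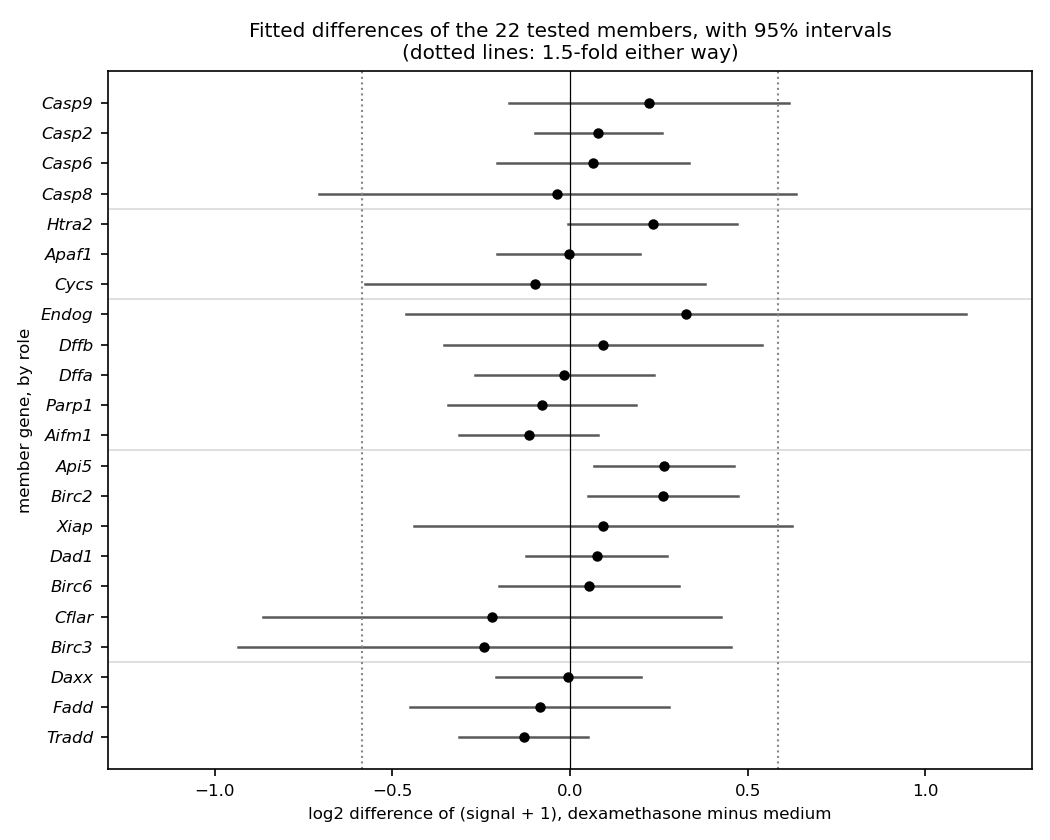
Fitted log2 difference of (signal + 1), dexamethasone minus medium, for the 22 tested members by role, with 95% intervals as bars and dotted lines at 1.5-fold either way. The intervals of 16 members lie within the dotted lines, Endog has the widest, and those of Api5 and Birc2 do not reach 0.

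Among the nucleases and their regulators, 5 of 9 measured members were above background and 0 passed. Dffa, the chaperone and inhibitor of the caspase-activated DNase, gave 277 and 329 with dexamethasone, against 291 and 321 in medium (-0.02 ± 0.10). The dimmer Dffa probe set gave 111 and 126 with dexamethasone, against 132 and 143 in medium, without overlap and with a difference of -0.21. Dffb, the DNase itself, gave 36.7 and 38.7 with dexamethasone, against 31 and 40.1 in medium, so that the dexamethasone values lay between those of medium. Neither the nuclease nor its inhibitor passed.

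Aifm1, a mitochondrial flavoprotein that can move to the nucleus during cell death, had 236 and 221 with dexamethasone, against 240 and 256 in medium. The groups did not overlap, which 25.7% of all genes tested also showed in the lower direction, and the difference of -0.12 ± 0.08 did not pass (limma adjusted p = 0.487). Endog, a mitochondrial endonuclease, had the largest difference of any member, 0.33 ± 0.33, and it rests on 1 array: signals were 15.8 and 29.3 with dexamethasone, against 18.3 and 15.8 in medium. Without the second dexamethasone array the difference of Endog was -0.10, and without the first it was 0.75. Parp1, a DNA damage sensor cleaved by executioner caspases, gave 87.8 and 98.0 with dexamethasone, against 95.8 and 100.4 in medium. Its single probe set is of the kind whose probes are shared by similar sequences, so its signal may not be that of Parp1 alone. The dimmer probe sets of Birc2 and Casp2 are of the same kind.

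The 9 members at background were not tested, and a fold cannot be given for any of them. They were the inflammatory caspases Casp1 and Casp4, which process interleukin-1 family cytokines or drive pyroptosis, Casp12, Casp14, a caspase of skin differentiation, the lipid droplet proteins Cidea and Cideb, the secreted nucleases Dnase1 and Dnase1l3, and Diablo. Their signals ranged from 0.8 for Casp4 with dexamethasone and 0.3 for Casp12 in medium up to 13.7 for Casp14 on 1 dexamethasone array. Casp1, which matures interleukin-1 beta, was at 4.5 and 7 with dexamethasone, against 5.2 and 2.4 in medium. Casp1, Casp4 and Casp12 are successive protein-coding genes on mouse chromosome 9, and all were at background in both groups. An array signal at background does not show that a transcript is absent.

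Inflammatory caspases are typical of macrophages and dendritic cells. Of 12 markers listed for those cells, 4 were above background on all arrays, namely Cd68, Cd14, Mpeg1 and Ctss, and 5 were at or under it on all, namely Adgre1, Lyz2, Itgam, Fcgr3 and C1qa. Mpeg1, which encodes a pore-forming protein of macrophages, had 30.2 and 29.9 with dexamethasone, against 42.3 and 50.6 in medium, and did not pass (limma adjusted p = 0.115). The summed signal of the 12 was 185 to 207 with dexamethasone, against 231 to 239 in medium, and its part in the members' values was not tested.

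Caspase inhibitors and other death inhibitors were all above background, and 0 of the 7 passed. Api5, a nuclear protein that restrains apoptosis after growth factor withdrawal, came closest of all members. Its signals were 229 and 230.3 with dexamethasone, against 184 and 199 in medium. The groups did not overlap, and the difference was 0.26 ± 0.08, or 1.2-fold, with a 95% interval from 1.05-fold to 1.38-fold (limma adjusted p = 0.145). Birc2, the ubiquitin ligase cIAP1, was nearly the same in size, at 207 and 199.6 with dexamethasone, against 162 and 177 in medium (0.26 ± 0.09, limma adjusted p = 0.169). Its dimmer probe set ran the other way without overlap, at 17.2 and 16.1 with dexamethasone, against 18.7 and 25 in medium. With scaling to the hybridization controls both Api5 and Birc2 had a difference of -0.19, where the median of all genes was -0.45, so both stayed above that median.

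Birc3, the related ligase cIAP2, lies next to Birc2 on chromosome 9 and did not pass either. Its signals were 51.3 and 54.3 with dexamethasone, against 45.2 and 86.5 in medium. The 2 medium arrays differed more from each other than from the treated arrays, and the difference of -0.24 ± 0.29 changed sign, to 0.22, without the second medium array.

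Xiap, the inhibitor that binds caspase-3, caspase-7 and caspase-9 directly, was near background on its brightest probe set, at 22.1 and 18.9 with dexamethasone, against 19.3 and 18.9 in medium. Its other probe sets lay at or under background. Birc6, a giant ubiquitin-conjugating inhibitor, had 143 and 124 with dexamethasone, against 127 and 130.3 in medium (0.05 ± 0.10). Cflar, the catalytically inactive relative of caspase-8 known as c-FLIP, had 16 and 23.9 with dexamethasone, against 25.3 and 20.8 in medium. Casp8 and Cflar are neighbours on chromosome 1, both were dim, and both had wide intervals, that of Cflar running from -0.86 to 0.43.

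Dad1, a subunit of the oligosaccharyltransferase named as a defender against cell death, gave 1097 and 966 with dexamethasone, against 1008 and 947 in medium. The groups overlapped and the difference was 0.08 ± 0.08. A dimmer Dad1 probe set gave 28.3 and 20.6 with dexamethasone, against 19.1 and 16.7 in medium. Its difference was 0.42 and its groups did not overlap, as was so in the higher direction for 24.7% of all genes tested. The remaining Dad1 probe sets were at background.

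**Figure D4:**
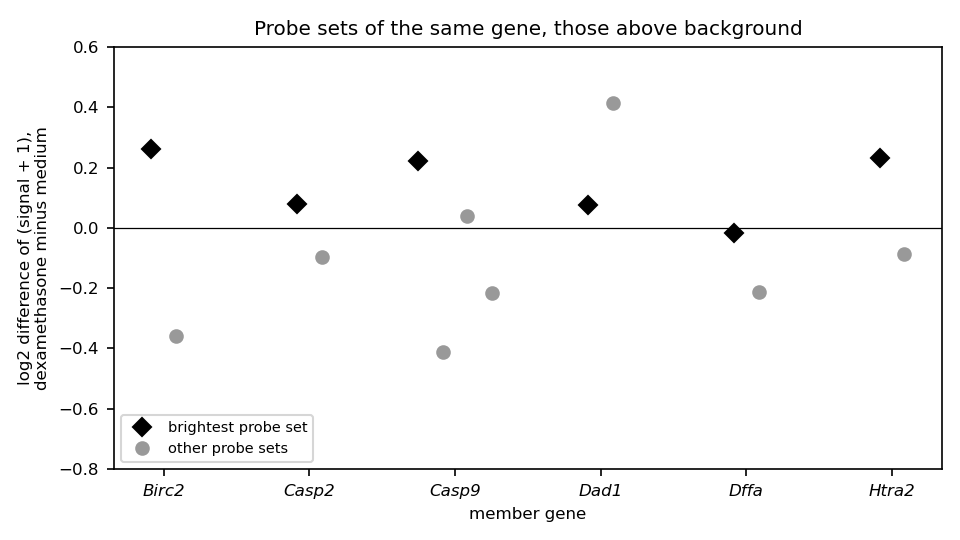
Log2 difference of (signal + 1), dexamethasone minus medium, for each probe set above background of the 6 members that have several, with the brightest as a black diamond and the others as grey circles. For Birc2, Casp2, Casp9 and Htra2 the brightest probe set lies above 0 and another lies below it.

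Of the death adaptors, 3 were measured and 0 passed. Their means were lower with dexamethasone, for Daxx by almost nothing, as were those of 2785 of the 5582 genes tested. Fadd, which links death receptors to caspase-8, had 56.8 and 64.8 with dexamethasone, against 71.0 and 58.5 in medium (-0.09 ± 0.15). Tradd, the adaptor of the TNF receptor, had 265 and 276 with dexamethasone, against 288 and 305 in medium. Its groups did not overlap, and the difference was -0.13 ± 0.07 (limma adjusted p = 0.395). Daxx, a histone chaperone first described as a partner of the Fas receptor, had 165 and 160.4 with dexamethasone, against 168 and 159 in medium, a difference of -0.00 ± 0.08.

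The precision differed among the members. The 95% intervals of 16 of the 22 lay within 1.5-fold either way, and those of 21 within 2-fold, against 3379 and 4914 of all 5582 genes. The exceptions at 1.5-fold were Casp8, Casp9, Endog, Birc3, Cflar and Xiap, all with signals under 90. Casp6, Cycs, Dffb and Fadd were also under 90 on every array, yet their intervals lay within 1.5-fold. Endog alone reached past 2-fold, with an upper bound of 2.16-fold. These intervals cover the spread between extracts and not that between mice. The groups did not overlap for 5 of the 22 members, 3 of them higher and 2 lower, against 50.5% of all genes tested.

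Scaling decides how these values read. The signal of the 9 hybridization control probe sets, which report spiked-in bacterial transcripts, was 1.37-fold higher with dexamethasone than in medium. Scaled to them, the median log2 difference of all genes moved to -0.45 and that of the members to -0.43. Then 7 of the 22 members fell, namely Aifm1, Birc3, Dad1, Dffa, Fadd, Parp1 and Tradd, beside 44.2% of all genes tested. Relative to the shift of all genes the members' median stood at nearly the same place as before. The sign of the difference changed for 11 of the 22 members, among them Dad1, from 0.08 on the deposited scaling to -0.38. Such a change of sign follows from the shift of all genes.

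Lists of other genes of these pathways are given by their counts, to be read against the 3.91% of all genes that passed. Of 21 listed further caspases, their receptors and regulators, 8 were tested and 0 passed. The largest differences were 0.40 ± 0.14 for Casp8ap2, a partner of caspase-8, and 0.39 ± 0.13 for the chaperone Hsp90aa1. Among 15 tested caspase substrates Lmna fell and 0 rose. Lmna, which encodes the nuclear lamins A and C, had 78.0 and 82.3 with dexamethasone, against 123 and 122 in medium, a difference of -0.60 ± 0.10 (limma adjusted p = 0.0290). The dimmer Lmna probe set had 19.3 and 19.3 with dexamethasone, against 21.2 and 19.8 in medium, a difference of -0.08. The call was lost with the mean of both probe sets (-0.34), with no filter, without the trend and when any array was left out, where the difference was -0.56 to -0.64.

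Of 12 tested genes for other nucleases and the handling of DNA ends, Xrcc6 rose and 0 fell. Xrcc6 encodes Ku70, which binds broken DNA ends, and had 1369 and 1186 with dexamethasone, against 709 and 769 in medium, a difference of 0.79 ± 0.09 (limma adjusted p = 0.00831). Its call was lost with scaling to the hybridization controls (0.33), without the trend, and on leaving out any array other than the second with dexamethasone. With arrays left out, the difference was 0.68 to 0.89. Of 8 tested genes of dead cell clearance and programmed cell death, Pdcd4, an inhibitor of translation, rose, and 0 fell. It had 858 and 723 with dexamethasone, against 452 and 532 in medium, a difference of 0.68 ± 0.11 (limma adjusted p = 0.0290). Its call was lost with that scaling (0.23), with no filter, without the trend and when any array was left out, where the difference was 0.56 to 0.81.

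Of 10 tested genes for other cell death proteases and their inhibitors, 0 passed. The largest differences were -0.51 ± 0.15 for Serpinb9, an inhibitor of granzyme B, and -0.27 ± 0.13 for Gzma, which encodes granzyme A. The median log2 differences of the 5 lists lay between -0.03 and 0.17, against 0.00 for all genes tested.

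The labelled cell type was checked against marker lists. All 10 measured markers of double-positive thymocytes, among them Cd4, Cd8a and Rag1, were above background on all arrays, with a summed signal of 14067 to 14969 with dexamethasone, against 14531 to 14832 in medium. Among them Ptcra (-0.84) and Cd8b1 (-0.33) fell (limma adjusted p = 0.0192 and 0.0466). The sums were 1911 to 1932 with dexamethasone and 1407 to 1429.6 in medium for 7 B cell markers, most of it from Ighm. For 7 markers of thymic epithelium they were 113 to 114 with dexamethasone and 214 to 223 in medium, with 6 markers, among them Krt5, Epcam and Foxn1, at background and the rest of the sum from Cldn4. For 5 markers of mature single-positive thymocytes they were 275 to 304 with dexamethasone and 211 to 257 in medium. That higher sum came from Il7r, at 147 and 139 with dexamethasone, against 49.4 and 58 in medium, while the means of Ccr7, S1pr1, Klf2 and Cd5 were lower. For 3 erythroid markers the sums were 108 to 116 with dexamethasone and 98 to 108 in medium. Of the markers outside the double-positive list, Ighm (0.46) and Il7r (1.40) rose and Cldn4 (-1.15) fell (limma adjusted p = 0.0123, 0.00339 and 0.00307). For beta-actin, the 3′ probe set over the 5′ one gave 1.40 and 1.24 with dexamethasone, against 1.15 and 1.06 in medium, a ratio that goes up as RNA degrades. For Gapdh the same ratio was 0.904 and 0.823 with dexamethasone, against 0.838 and 0.845 in medium. The part of these shifts in the members' values was not tested.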

How the data were processed

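RNA was measured on 4 arrays, 2 of cells with dexamethasone and 2 of cells in medium. The authors deposited one linear intensity per probe set and array, from MAS5 according to the submitters' processing notes. Its version and settings are not given in the sources used here. Their mean, trimmed by 2% at each end, was 100.06 to 100.07 on every array, which fits a global scaling. Present or absent calls were not used here. There were 12488 probe sets and 0 columns of other samples. Probe sets were named from the platform annotation: apart from 66 controls, 10833 named 1 gene, 396 several and 1193 none, and 10817 gene IDs matched the reference table, with 0 renamed.

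For each gene the probe set with the highest mean signal was used, as log2(signal + 1). Genes with a mean at or under the 40th percentile of all probe sets were not tested, and 5582 remained. The groups were compared by lmFit and eBayes with a trend (limma 3.58.1, R 4.3.3). This fit draws each gene's variance toward that of genes with similar signal. The SEs and intervals are therefore not a gene's own spread alone, and their width follows partly from its signal. P-values are two-sided and were adjusted over all 5582 genes by the Benjamini-Hochberg method. Rose and fell are used only where the adjusted p was under 0.05. The fit was run on simulated data. The changes put into those data were all larger than any member's difference, so that run says nothing of recovering changes that small. The 33 genes, the other lists and the alternatives were chosen with earlier results of these data known. Every member with a probe set is named, and in each other list at most the 3 largest passing changes or, with none, the 2 largest differences. Alternatives were 3 scalings, 2 pseudocounts, 2 filters, no trend, a replicate block, other uses of probe sets and leaving out each array. CG counts and motif matches were read from RefSeq promoter sequences of GRCm38.p6 and chosen after the signals were seen. The number of arrays limits the precision.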

Additional observations from a re-analysis of the deposited data

How the results depend on the processing

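By limma, 0 members passed under 14 of 15 alternatives, which tested 22 members except with the 60th percentile filter (16), the mean of probe sets (21), no filter (31) and probe sets in place of genes (30 probe sets). The exception was scaling to the hybridization controls, with 7 falls, beside 2513 changed genes in all, and a members' median of -0.43. There the sign changed for 11 of 22 members, of which Dad1 alone passed, at -0.38. The members' median, 0.02, was -0.035 with median centring, 0.075 with no filter, -0.036 with the mean of probe sets and -0.010 with probe sets in place of genes. It ranged from 0.0039 to 0.073 when arrays were left out, and 0 members passed in those fits. Where a group kept 1 array, that array is assumed to vary like the other group. The count of changed genes, 218, was 116 with no filter, 19 without the trend and 32 to 78 when arrays were left out. The replicate numbers shared by the groups are not stated to pair the extracts. Over the genes tested, the deviations of same-numbered arrays from their group means had a correlation of 0.07. With a replicate block 353 genes and 0 members passed. The sign of the difference changed for 3 of 22 members with quantile normalization and 1 with median centring, fits where 0 members passed. With the mean of probe sets it changed for 3 of 21, namely Birc2 (to -0.05), Casp2 and Casp9, and 0 passed. When an array was left out it changed for 3 to 7.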
